A study of Mus musculus with 23 samples.

Results

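The insulin-like growth factor family was followed from embryonic stem cells through cultured myoblasts and myotubes to mouse quadriceps. Its members were Igf1, Igf2, Igf1r, Igf2r and Igfbp2 to Igfbp7, chosen by name: every probe carrying one of these gene names was taken. That gave 15 probes of 10 genes, out of 55681 probes and 36161 gene names on the array. Igf1 had 5 probes, Igfbp2 had 2 probes and each other member had 1 probe. Of the 15 probes, 14 carried an accession that the RefSeq gene table pairs with the same symbol. The first Igf1 probe, whose accession is NM_184052, was matched by symbol alone.

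RNA was measured on 23 one-colour arrays, and 21 samples in 7 groups of 3 entered the tests. The stem cell lines were cGR8 (129Sv), RD1 (129X1/SvJ) and E14tg2 (129/Ola), so each stem cell sample is a single line, and the 2 arrays of E14tg2 were averaged to 1 sample. Primary myoblasts came from male C57BL/6J mice and were grown on collagen in Ham's F-10 with serum and bFGF. They were taken at passage 0 or, as expanded myoblasts, at passages 8 to 10. Expanded myoblasts that had reached confluence were placed on Matrigel in DMEM with horse serum, and the resulting myotubes were taken after 1, 2 or 4 days. One quadriceps came from a C57BL/6J mouse and the other 2 came from 129Sv/C57BL/6J mice. A skeletal muscle sample of a NOD/ShiLtj mouse had no replicate and entered no test. No group carried an engineered allele according to the labels, and no ages are given there. The titles carry culture numbers 21, 26 and 28 for the expanded myoblasts and for each myotube day, and 26, 30 and 42 for passage 0. Whether a culture number marks an animal is not stated, so the p-values reflect the scatter among these samples, which may be partly technical.

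Igf1 and Igf2 are secreted ligands that signal through the tyrosine kinase receptor Igf1r, which activates the PI3K-Akt and Ras-ERK routes. Igf2r, the cation-independent mannose 6-phosphate receptor, binds Igf2 and carries it to lysosomes, and the secreted binding proteins hold the ligands and set how much reaches the receptor. In skeletal muscle the family is known for promoting growth of fibres and differentiation of myoblasts. Igf2 is an imprinted gene expressed strongly in the fetus, and its promoters lie near H19, a maternally expressed non-coding RNA.

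The Igf1 results below differ between its probes, so the first 30 bases of each 60-base Igf1 probe are shown. Capitals mark bases that probes 2 and 3 share. These probes overlap by 40 bases and are not independent readings.

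Igf1 probe 1: aaccattaaaaacatgccaccaagaccttc

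Igf1 probe 2: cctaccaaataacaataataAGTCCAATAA

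Igf1 probe 3: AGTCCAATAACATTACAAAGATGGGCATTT

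Igf1 probe 4: agaaatgtaaatggaataagaggtcagctg

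Igf1 probe 5: ctcctgattgtatttgaagtggttattcaa

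The scanner files place these probes in the order 1 to 5 along the plus strand of chromosome 10 in build mm9. Probe 1 lies at chr10:87378456-87378515, probe 2 at chr10:87393561-87393620, probe 3 at chr10:87393581-87393640, probe 4 at chr10:87395924-87395983 and probe 5 at chr10:87399581-87399640. The Igf2 probe lies at chr7:149839661-149839720 on the minus strand and the Igfbp5 probe at chr1:72904829-72904888. Exon and UTR annotation in mm9 was not used here. The most 3' Igf1 probe is therefore named only by its position.

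Most members rose together between stem cells and myoblasts, so the start regions were also compared. RefSeq start windows, in build GRCm38.p6, ran from 250 bases before to 50 bases after an annotated start. All 10 members matched, with 14 windows. The 100 bases just before the start are printed for 5 windows, chosen to show the range of CpG content. Capitals mark CpG dinucleotides.

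Igf1r, chr7:67952157-67952256, plus strand: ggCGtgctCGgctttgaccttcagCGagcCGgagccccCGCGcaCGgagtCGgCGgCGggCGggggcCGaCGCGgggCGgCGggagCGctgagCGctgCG

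Igf2r, chr17:12769707-12769806, minus strand: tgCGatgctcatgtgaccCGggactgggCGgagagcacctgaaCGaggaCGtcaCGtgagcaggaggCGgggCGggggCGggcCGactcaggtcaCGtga

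Igf2, the start farthest upstream, chr7:142666817-142666916, minus strand: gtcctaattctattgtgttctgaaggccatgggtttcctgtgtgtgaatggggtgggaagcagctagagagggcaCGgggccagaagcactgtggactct

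Igfbp5, chr1:72874866-72874965, minus strand: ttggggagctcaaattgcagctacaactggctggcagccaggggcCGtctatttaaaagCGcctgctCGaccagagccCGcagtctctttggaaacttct

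Igfbp6, chr15:102144086-102144185, plus strand: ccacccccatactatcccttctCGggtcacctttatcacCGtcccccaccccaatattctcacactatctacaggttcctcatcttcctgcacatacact

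The receptors had CpG-rich windows, with 48 CpG in the 300 bases of Igf1r and 34 in those of Igf2r. The median over all 32851 RefSeq windows was 7, with quartiles of 3 and 20. Igfbp3 had 37, Igfbp7 had 33 and Igfbp4 had 27, all above the upper quartile. Igf1 had 6, Igfbp5 had 10 and Igfbp6 had 8, close to the median. The 4 windows of Igf2 held 2, 14, 24 and 7 CpG, and the 2 windows of Igfbp2 held 18 and 14. The E-box CAGCTG, searched on both strands as were the next 2 motifs, was found in 1 of the 14 windows, that of Igf1, against 16.3% of all windows. TATAAA was found in 2 of the 14, those of Igfbp4 and Igfbp6, against 13.6% of all. The GC box GGGCGG was found in 6 of the 14 against 35.7% of all. None of the 3 motifs contains another, and a match describes the letters of a window only.

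Levels are given as log2 signal minus the log2 75th percentile of that array, so 0 is that percentile and a difference of 1 is a 2-fold difference. They compare samples for 1 probe and do not compare probes with each other. A probe was tested where all 3 samples of at least 1 group stood well above background in the scanner software's call. It was called changed if the limma adjusted p (Benjamini-Hochberg over all probes tested) was under 0.05 and the fold was 2 or more. All 5 stem cell markers were above background in every stem cell sample, and their mean level ran from 4.72 to 5.07 there against -4.42 to -1.44 in all other groups. Sox2 and Zfp42 were above background in no sample of those groups and Pou5f1 in 1 expanded myoblast sample, but Esrrb and Tdgf1 were above background in every sample of all 7 groups. The 5 myoblast markers were above background in every myoblast, myotube and quadriceps sample. In stem cells Cdh15, Itga7 and Des were also above background in every sample, at lower levels, while Myod1 and Pax7 were in none. Expanded myoblast replicate 1 stood apart. Its 75th percentile of signal was 87.7 against 208 to 765 on the other arrays, and it correlated with its group at r = 0.893 and 0.865 against 0.967 between the other pair. Called member results resting on it are given with and without it. The folds of single pathway genes, and the pathway counts for day 1 and day 4 against expanded myoblasts, are given only with it.

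Between stem cells and passage 0 myoblasts, 10 of 14 tested probes rose and 2 fell, against backgrounds of 17.5% higher and 20.5% lower over all probes tested. By gene, 8 of 9 tested members rose and 1, Igfbp2, fell. The members' median log2 change was 3.23 and that of all probes tested was -0.27. The filter admits probes that were high in only 1 of the groups compared, which favours a difference. This count and those of the comparisons below therefore describe the members only. All stem cell lines were of 129 substrains and all myoblasts were C57BL/6J, so strain and cell type cannot be told apart in this comparison.

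No member was called between passage 0 and expanded myoblasts. Limma called 0 of 14 tested probes, against 0.309% higher and 0.52% lower over all probes, and 3 probes (Igf2r, Igfbp3 and Igfbp4) had an unadjusted p under 0.05. The lowest adjusted p among members was 0.265, and the members' median log2 change was -0.58 against 0.13 for all probes tested. The count was also 0 without expanded myoblast replicate 1.

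On the first day of differentiation, 4 of 13 tested probes rose against a background of 5.31% and 0 fell against 2.88%. They belonged to Igf1 and Igf2r. The members' median log2 change was 1.42 and that of all probes tested was -0.04. The count was 2, both Igf1 probes, without expanded myoblast replicate 1. Without day 1 replicate 3 it was 0. It was 2 without expanded myoblast replicate 3 and 2 without day 1 replicate 2.

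Between days 1 and 2 limma called 0 of 13 tested probes, against 0.485% higher and 1.9% lower over all probes, and none had an unadjusted p under 0.05. Between days 2 and 4 it called 1 of 12, an Igf1 probe that fell, against 0.0552% lower and 0.208% higher over all probes tested. With culture number as a block the count for days 2 and 4 was 3, all Igf1 probes. Over the whole of differentiation, day 4 against expanded myoblasts, 1 of 11 tested probes rose against a background of 14.2% and 0 fell against 10.1%. That probe was Igfbp5. The count was 2 without expanded myoblast replicate 2 or day 4 replicate 1, and 3 without day 4 replicate 2. The members' median log2 change over this span was -0.32 and that of all probes tested was 0.03. Without expanded myoblast replicate 1 the count was also 1 but the gene was Igfbp6.

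Between day 4 myotubes and quadriceps, 6 of 14 tested probes rose and 4 fell, against backgrounds of 15.2% higher and 15.8% lower. The genes that rose were Igf1, Igfbp4 and Igfbp6, and those that fell were Igf2, Igfbp2 and Igfbp3. The members' median log2 change was -0.10 against -0.02 for all probes tested. Without quadriceps replicate 2 the count was 6 in place of 10. The myotubes were C57BL/6J and quadriceps replicates 2 and 3 were 129Sv/C57BL/6J, so strain and tissue were in part confounded.

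**Figure D1:**
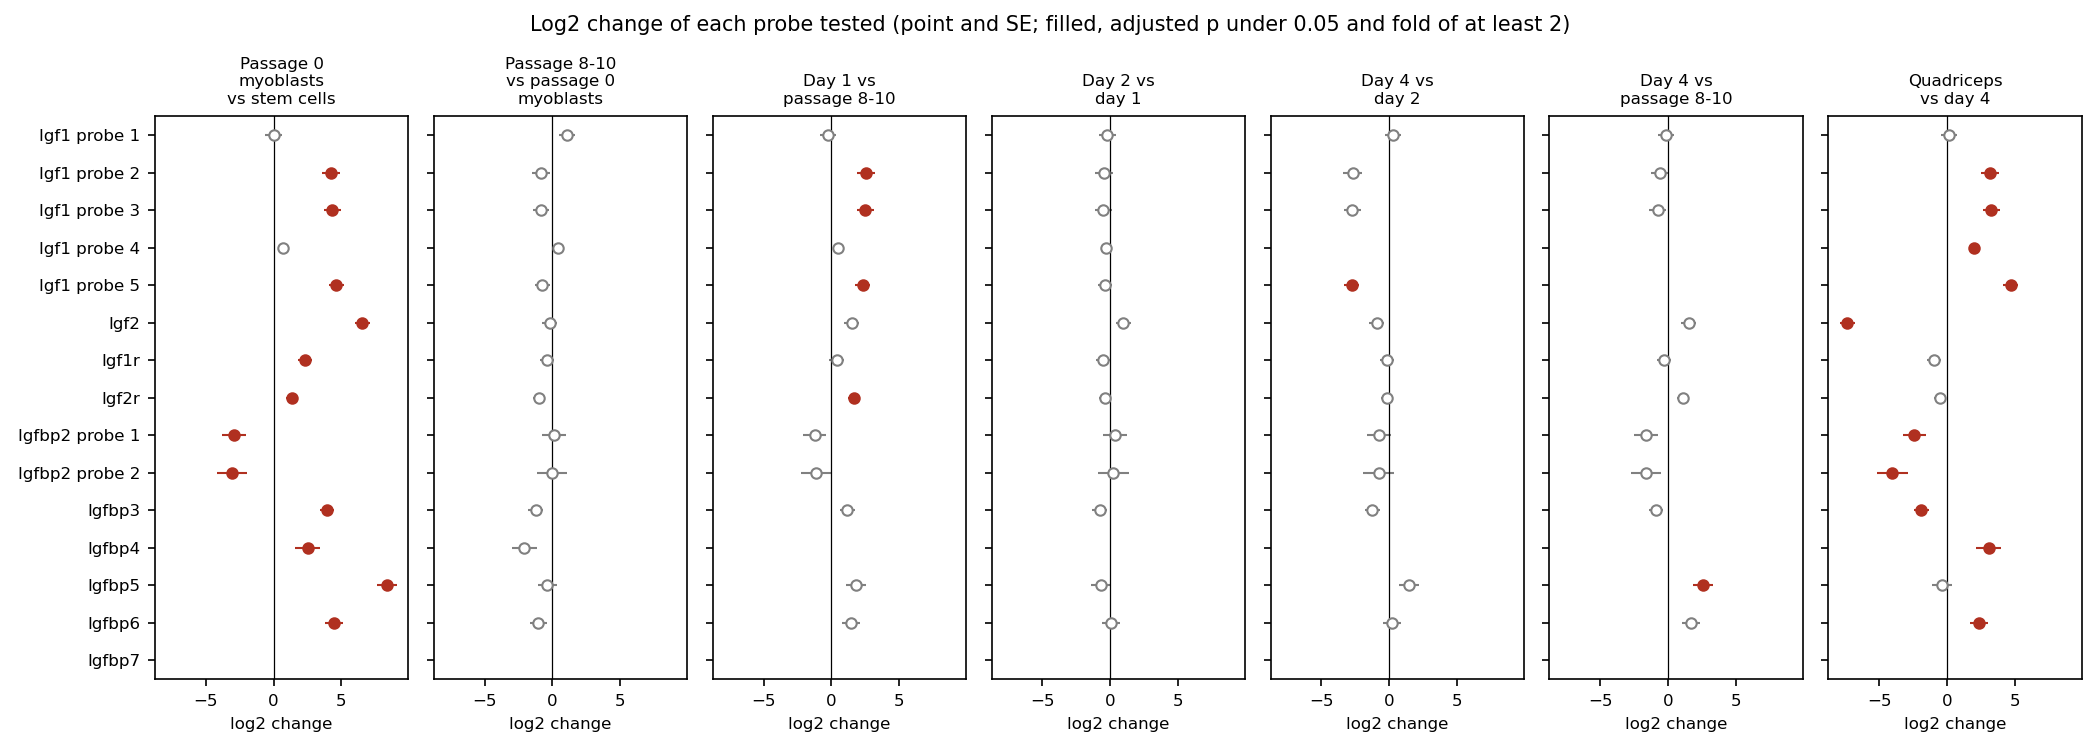
Log2 change of each tested probe (x axis, log2) in each comparison (panels), with the point at the estimate and the bar its SE; filled red points passed the call rule (limma adjusted p under 0.05, fold of 2 or more). The calls lie mainly in the first panel (12 probes) and the last (10 probes), and Igfbp7 was tested in none.

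Igf2, the fetal ligand, was low in stem cells, high in every myogenic culture and low again in adult muscle. The 3 stem cell lines lay at -3.84, -3.88 and -2.75, and the passage 0 myoblasts at 1.99, 4.13 and 3.01. The rise was 92.4-fold (log2 change 6.53, SE 0.56, limma adjusted p = 3.7e-08). The groups did not overlap, and the 3 slides gave differences of 6.85, 5.87 and 6.83. Each slide held 1 array of every group, apart from the repeat array of E14tg2, which within-slide differences leave out. With normexp, a model-based background correction of the raw signal, the log2 change was 5.32. With the authors' values, the processed levels deposited beside the scanner files, it was 5.05, and the call was kept in both.

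Expanded myoblasts lay at 2.29, 3.68 and 2.50 for Igf2. Day 1 myotubes lay at 4.22, 4.22 and 4.51, day 2 at 5.64, 5.25 and 4.91 and day 4 at 5.26, 3.70 and 4.06. Every myotube sample was above every expanded myoblast sample. None of these steps passed the test: the log2 change was 1.49 (SE 0.56, limma adjusted p = 0.116) on day 1 and 1.51 (SE 0.56, limma adjusted p = 0.0535) for day 4 against expanded myoblasts. The day 1 change passed with normexp (limma adjusted p = 0.0247) and with the authors' values (0.0332). Across the alternatives run for the second comparison the adjusted p ran from 0.0136 to 0.307, and it passed with normexp (0.0136), the authors' values (0.0187), slide as a block (0.0336) and median scaling (0.0460). The log2 change was 1.25 without expanded myoblast replicate 1, with a limma adjusted p of 0.137. It passed without expanded myoblast replicate 2 (limma adjusted p = 0.0249) and without day 4 replicate 2 (limma adjusted p = 0.0462).

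In quadriceps Igf2 lay at -2.50, -3.78 and -2.73, and only the first stood above background. The fall from day 4 myotubes was 162-fold (log2 change -7.34, SE 0.56, limma adjusted p = 2.6e-08), with differences of -6.20, -9.04 and -6.79 on the 3 slides. With normexp, where it also passed, the log2 change was -5.75. Quadriceps overlapped with stem cells, the group nearest in level.

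**Figure D2:**
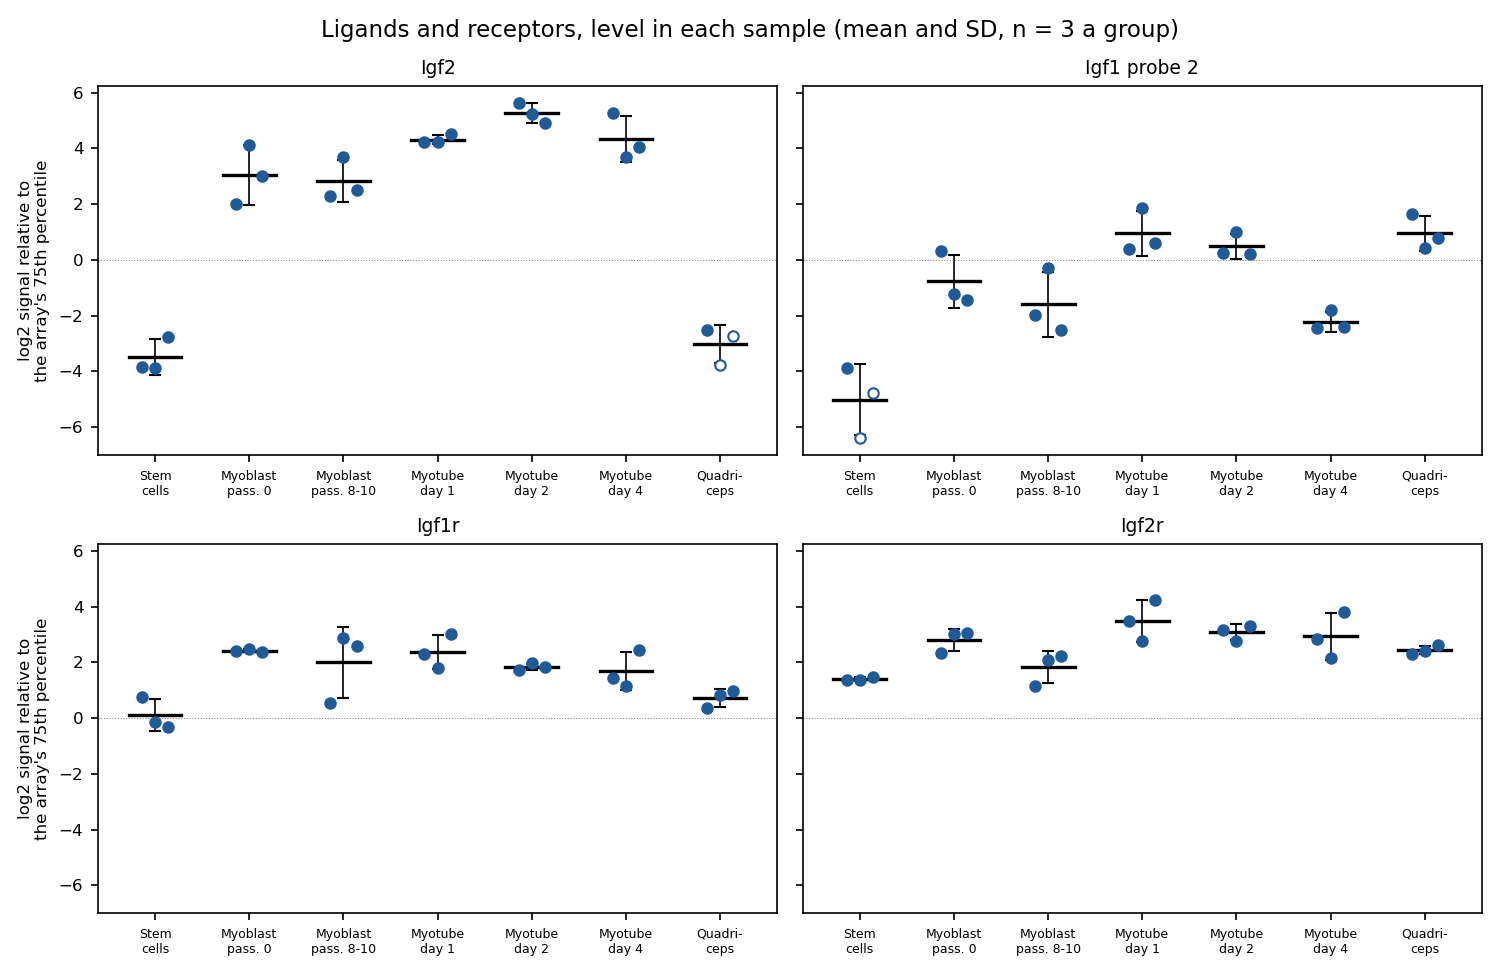
Level (y axis, log2 signal above or below the array's 75th percentile) of both ligands and both receptors in each sample of the 7 groups (x axis); points are samples, open where not well above background, and bars are the mean and SD of 3 samples. Igf2 is above 1.9 in every cultured myogenic sample and below -2.4 in all stem cell and quadriceps samples, whereas Igf1 probe 2 dips at day 4 and is high in quadriceps.

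Igf1, the ligand that acts both as an endocrine hormone and locally in muscle, gave a different course on 3 of its probes. Probe 2 lay at -3.89, -6.40 and -4.75 in stem cells, with only the first above background, and at 0.31, -1.21 and -1.42 in passage 0 myoblasts. The rise was 18.9-fold on probe 2 (log2 change 4.24, SE 0.67, limma adjusted p = 5.0e-05) and 20.2-fold on probe 3. With normexp the probe 2 change was 2.34 on the log2 scale and passed. On probe 5 no stem cell sample was above background. Passage 0 myoblasts there were at least 7.29-fold higher (limma adjusted p = 2.0e-06), a bound that sets each dim array to its lowest signal called above background or, where higher, the probe's own. That bound holds for the reported processing: the log2 change was 4.62 there, 1.69 with normexp and 1.54 with the authors' values, and it passed in each.

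Igf1 rose again on the first day of differentiation. Probe 2 went from -1.96, -0.29 and -2.53 in expanded myoblasts to 0.38, 1.87 and 0.61 in day 1 myotubes. All 3 day 1 samples were above all expanded myoblasts. The rise was 5.83-fold on probe 2 (log2 change 2.54, SE 0.67, limma adjusted p = 0.024), 5.59-fold on probe 3 (limma adjusted p = 0.018) and 4.99-fold on probe 5 (limma adjusted p = 0.013). With expanded myoblast replicate 1 left out, probe 2 no longer passed (5.14-fold, limma adjusted p = 0.0544), while probe 3 (4.64-fold, limma adjusted p = 0.0496) and probe 5 (4.06-fold, limma adjusted p = 0.0377) did. Without day 1 replicate 3 none of these probes passed, with limma adjusted p of 0.0587, 0.0585 and 0.0711 for probes 2, 3 and 5. Probe 2 and probe 3 were also lost without day 1 replicate 2 (limma adjusted p of 0.114 and 0.0895) and without expanded myoblast replicate 3 (0.0892 and 0.0745). With only these 2 groups in the fit the adjusted p was 0.252 to 0.314 for the 3 probes.

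By day 4 the Igf1 signal was lower. Probe 5 lay at -1.66, -0.40 and -0.47 on day 2 and at -4.66, -2.90 and -3.27 on day 4, the first of these not above background. The groups did not overlap and the fall was 6.82-fold (log2 change -2.77, SE 0.55, limma adjusted p = 0.037). Probe 2 lay at 0.24, 1.01 and 0.21 on day 2 and at -2.45, -1.80 and -2.40 on day 4. Its log2 change was -2.70 (limma adjusted p = 0.106) and that of probe 3 was -2.71 (limma adjusted p = 0.0825), both without overlap between the groups. Probe 3 passed with normexp (limma adjusted p = 0.0412) and the authors' values (0.0383), and probe 2 with the authors' values (0.0356). With culture number as a block for expanded myoblasts and myotubes, all 3 passed, with limma adjusted p of 0.0375, 0.0278 and 0.0050 for probes 2, 3 and 5. The call on probe 5 was lost in 5 of the 6 fits that left out 1 sample: the limma adjusted p was 0.0516, 0.172 and 0.145 without day 2 replicates 1, 2 and 3, and 0.238 and 0.0667 without day 4 replicates 1 and 3. It was also lost with normexp (0.123), quantile normalization (0.0925), median scaling (0.0517), the authors' values (0.0586), no filter on dim probes (0.0813), slide as a block (0.0514) and only these 2 groups in the fit (0.298).

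Quadriceps again stood above day 4 myotubes on 4 of the 5 Igf1 probes. Probe 5 lay at 1.83, 0.54 and 0.83 in quadriceps and was 25.7-fold higher than on day 4 (log2 change 4.68, SE 0.55, limma adjusted p = 3.3e-06). Probe 3 was 9.49-fold higher (limma adjusted p = 0.00053) and probe 4 was 3.92-fold higher (limma adjusted p = 0.00066). On probe 2 the log2 change was 3.17 (SE 0.67, limma adjusted p = 0.0012). In none of these 4 probes did the groups overlap, and every slide had the same sign. With normexp the probe 5 change was 2.92 on the log2 scale and passed.

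Probe 1 did not follow this course and was called in no comparison. Its levels outside expanded myoblasts ran from -0.52 to 1.51, and the expanded myoblasts lay at 2.98, -0.09 and -0.19. Before scaling, its log2 signal ran from 8.83 to 9.98 over the 21 samples, with an SD of 0.31. After scaling the SD was 0.78. Its scaled level had r = -0.92 with the log2 75th percentile of the array, and its unscaled signal had r = 0.02, over 21 samples whose percentile also enters the scaled level. Probe 2 ran from 3.01 to 10.81 before scaling. Probe 1 carries the accession of another Igf1 transcript record than the other 4 probes.

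Probe 4 lay between -5.24 and -2.62 in all cultures and at -0.97, -2.15 and -1.63 in quadriceps. It was called in the quadriceps comparison. Under the background correction normexp its quadriceps change was 0.99, under the fold threshold, with a limma adjusted p of 0.0396. With quantile normalization (limma adjusted p = 0.0202) and median scaling (0.0299) it was also called between stem cells and passage 0 myoblasts.

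**Figure D3:**
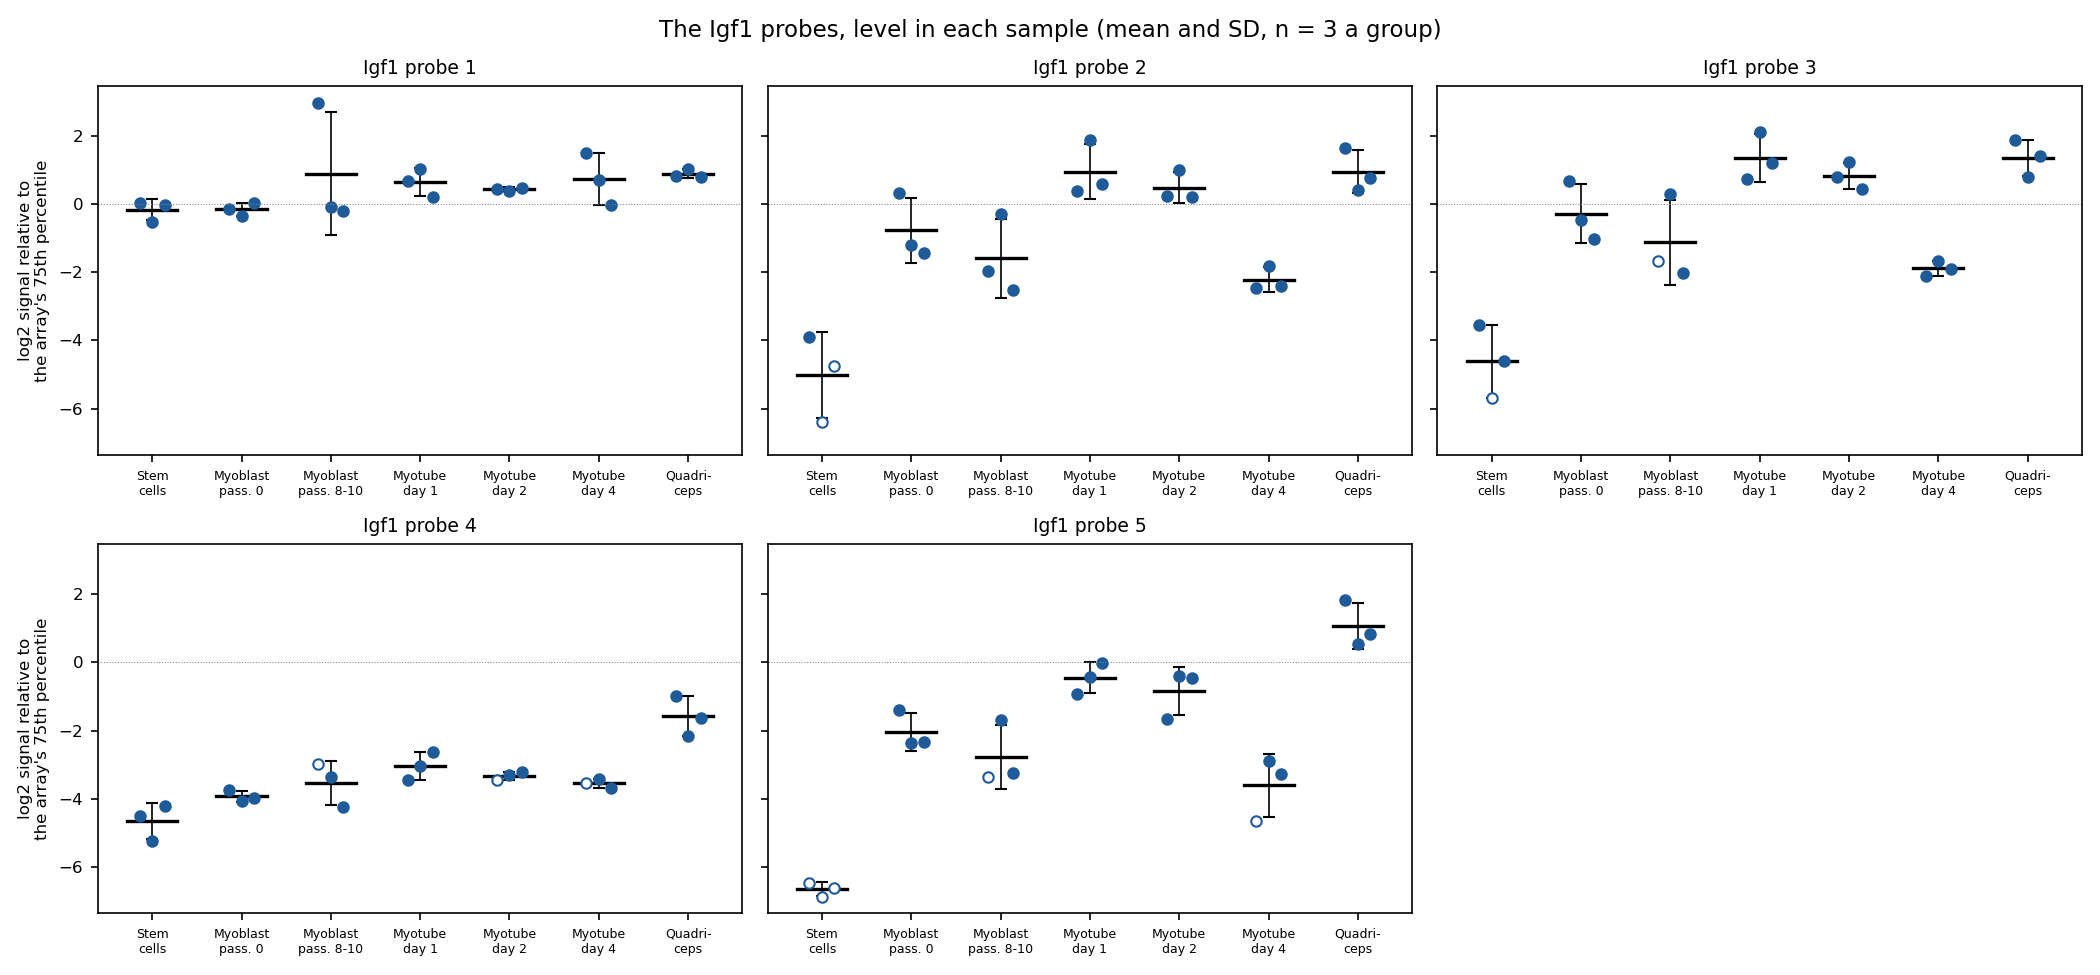
Level (y axis, log2 signal above or below the array's 75th percentile) of each of the 5 Igf1 probes in each sample of the 7 groups (x axis); points are samples, open where not well above background, and bars are the mean and SD of 3 samples. Probes 2, 3 and 5 rise at day 1, drop at day 4 and are high in quadriceps, probe 4 is highest in quadriceps, and probe 1 keeps within -0.52 to 1.51 apart from 1 expanded myoblast sample at 2.98.

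Within an array, Igf1 probe 5 minus probe 2 is given as a description, chosen after the values were seen. An exact two-sided permutation test gave p = 0.1 for quadriceps against each of passage 0, day 1 and day 2. That is the smallest p that 3 samples a group allow, so the test could not decide. Igf1 probe 5 minus probe 2 was as follows. It was 0.18, 0.12 and 0.06 in quadriceps. Its mean was -1.26 ± 0.40 (SD, n = 3) in passage 0 myoblasts, -1.40 ± 0.85 on day 1 and -1.33 ± 0.61 on day 2, and no sample of these 3 groups overlapped with quadriceps. Both probes were above background on every array of these 4 groups. In stem cells probe 5 was above background in 0 of 3 samples, and 1 expanded myoblast sample and 1 day 4 sample were also dim on it, so differences there include background signal and are not compared. A level difference between probes on 1 array includes their unequal binding, so only its change between groups can be read.

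**Figure D4:**
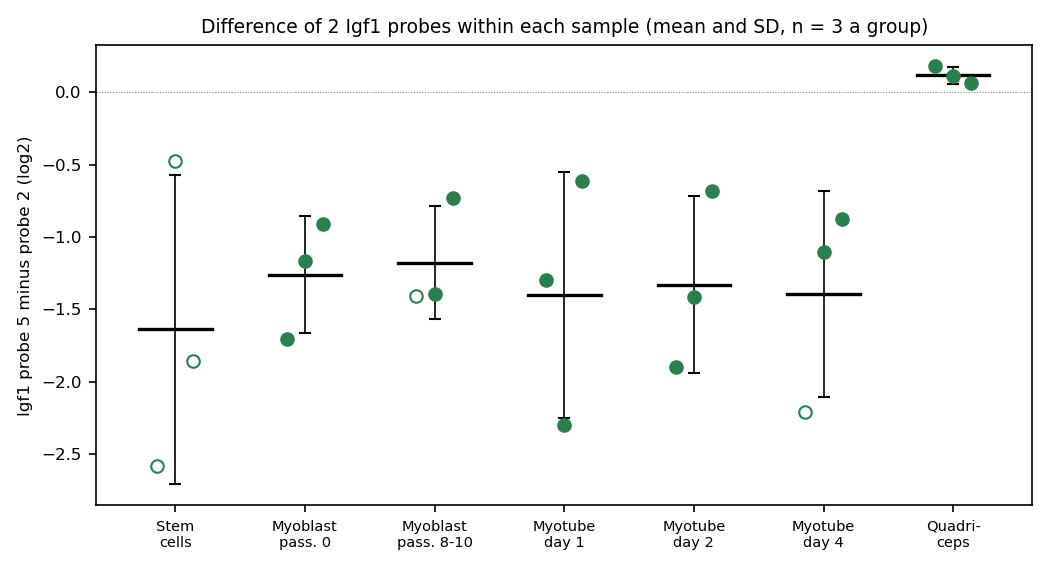
Igf1 probe 5 minus probe 2 (y axis, log2) within each sample of the 7 groups (x axis); points are samples, open where either probe was not well above background, and bars are the mean and SD of 3 samples. The 3 quadriceps samples lie at 0.06 to 0.18, and the passage 0, day 1 and day 2 samples, all filled, lie lower.

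The signalling receptor Igf1r rose from stem cells to myoblasts and was called in no later step. It lay at 0.76, -0.15 and -0.31 in stem cells and at 2.41, 2.49 and 2.37 in passage 0 myoblasts, without overlap. The rise was 5.01-fold (log2 change 2.33, SE 0.52, limma adjusted p = 0.0015). Expanded myoblasts lay at 0.53, 2.89 and 2.57, the lowest being the dim array, and myotubes at 1.15 to 3.02. In quadriceps Igf1r lay at 0.36, 0.83 and 0.96, below every day 4 sample, but the log2 change of -0.96 (SE 0.52) did not pass (limma adjusted p = 0.172).

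Igf2r, which clears Igf2, was above background on every array. It rose from 1.37, 1.37 and 1.47 in stem cells to 2.33, 3.02 and 3.05 in passage 0 myoblasts (2.63-fold, log2 change 1.40, SE 0.44, limma adjusted p = 0.017). That call was lost without passage 0 replicate 2 (limma adjusted p = 0.0611) or replicate 3 (0.0629). On the first day of differentiation it went from 1.16, 2.09 and 2.23 to 3.48, 2.76 and 4.25, again without overlap (3.18-fold, log2 change 1.67, SE 0.44, limma adjusted p = 0.025). Without expanded myoblast replicate 1 the rise was 2.53-fold and did not pass (limma adjusted p = 0.0740), nor did it pass without day 1 replicate 1 (0.0643) or replicate 3 (0.150), or with only these 2 groups in the fit (0.441). Day 4 myotubes lay at 2.86, 2.15 and 3.82, overlapping with expanded myoblasts (log2 change 1.12, SE 0.44, limma adjusted p = 0.0722). That change passed with replicate number as a block (limma adjusted p = 0.0405), with culture number as a block (0.0205), with slide as a block (0.0453) and without day 4 replicate 2 (0.0284). Without expanded myoblast replicate 1 it was 0.78 (limma adjusted p = 0.214). Quadriceps lay at 2.31, 2.42 and 2.62, within the day 4 range.

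Igfbp5, a binding protein that cultured myoblasts secrete as they differentiate, had the widest range of any member, with group means 10.5 log2 units apart. Stem cells lay at -4.20, -4.86 and -6.35, with only the first above background, and passage 0 myoblasts at 3.87, 3.18 and 2.65. The rise was 331-fold (log2 change 8.37, SE 0.72, limma adjusted p = 4.3e-08), with differences of 6.86, 8.73 and 9.44 on the 3 slides. The log2 change was 5.90 with normexp and 5.53 with the authors' values, and each passed. Expanded myoblasts lay at 1.05, 4.54 and 2.99 and day 4 myotubes at 5.21, 5.27 and 5.75, without overlap. That rise was 5.85-fold (log2 change 2.55, SE 0.72, limma adjusted p = 0.014). Without expanded myoblast replicate 1, the low value, it was 3.12-fold and did not pass (limma adjusted p = 0.0686). With only these 2 groups in the fit the limma adjusted p was 0.173. On day 1 the log2 change was 1.80 (SE 0.72, limma adjusted p = 0.148), or 0.89 (limma adjusted p = 0.480) without expanded myoblast replicate 1. Of the alternatives run it passed only without expanded myoblast replicate 2 (limma adjusted p = 0.0257). Quadriceps lay at 4.72, 5.48 and 4.93 and overlapped with day 4 (log2 change -0.37, SE 0.72, limma adjusted p = 0.748).

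Igfbp6, which prefers Igf2 over Igf1, rose at both ends of the series. It lay at -1.80, -1.82 and -2.18 in stem cells and at 1.06, 3.43 and 3.04 in passage 0 myoblasts (21.7-fold, log2 change 4.44, SE 0.66, limma adjusted p = 2.5e-05). Quadriceps lay at 5.62, 5.21 and 5.73, above all day 4 myotubes at 1.80, 3.37 and 4.24 (5.20-fold, log2 change 2.38, SE 0.66, limma adjusted p = 0.0089). The quadriceps call was lost without day 4 replicate 1 (limma adjusted p = 0.0652). For day 4 against expanded myoblasts the log2 change was 1.66 (SE 0.66, limma adjusted p = 0.0715). It passed at 4.53-fold without expanded myoblast replicate 1 (limma adjusted p = 0.0237) and also without day 4 replicate 1 (0.0205), with median scaling (0.0225), normexp (0.0271) and slide as a block (0.0455).

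Igfbp4 was dim in stem cells and in the cultures after passage 0, while passage 0 myoblasts overlapped with quadriceps. It lay at -2.94, -3.51 and -4.33 in stem cells, the last not above background, and at -1.36, -0.83 and -0.98 in passage 0 myoblasts (5.79-fold, log2 change 2.53, SE 0.92, limma adjusted p = 0.034). In the later cultures it was above background in 1 or 2 of 3 samples of each group. Quadriceps lay at -0.75, -0.66 and -1.65 against -2.88, -3.64 and -5.70 on day 4, only the middle of which was above background (8.30-fold, log2 change 3.05, SE 0.92, limma adjusted p = 0.015). The first call was lost in 5 of 6 fits that left out a sample: the limma adjusted p was 0.0709 and 0.123 without stem cell replicates 2 and 3, and 0.0579, 0.0902 and 0.0790 without passage 0 replicates 1, 2 and 3. It was also lost with no filter on dim probes (0.0549). The quadriceps call was lost without day 4 replicate 3 (0.0831) or quadriceps replicate 2 (0.0544). With normexp the log2 changes were smaller, 1.57 and 1.44, and both passed.

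Igfbp3, the main carrier of the ligands in serum, was highest in myoblasts and early myotubes. It rose from -1.48, -1.78 and -2.22 in stem cells to 2.37, 1.76 and 2.21 in passage 0 myoblasts (15.3-fold, log2 change 3.94, SE 0.55, limma adjusted p = 1.3e-05). Day 1 myotubes lay at 2.22, 2.20 and 1.71, day 2 at -0.17, 1.78 and 2.14 and day 4 at -0.61, -0.34 and 0.91. The step from day 2 to day 4 did not pass (log2 change -1.26, SE 0.55, limma adjusted p = 0.555). Quadriceps, at -1.94, -2.24 and -1.52, lay below all day 4 samples (3.70-fold lower, log2 change -1.89, SE 0.55, limma adjusted p = 0.013). That call was lost without day 4 replicate 3 (limma adjusted p = 0.0673) or quadriceps replicate 2 (0.0537).

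Igfbp2, a binding protein prominent in the fetus, moved opposite to the other members called between stem cells and myoblasts. Probe 1 lay at 5.25, 4.75 and 4.97 in stem cells and at 3.28, 1.91 and 1.00 in passage 0 myoblasts, without overlap. The fall was 7.60-fold on probe 1 (log2 change -2.93, SE 0.88, limma adjusted p = 0.012) and 8.32-fold on probe 2 (log2 change -3.06, SE 1.13, limma adjusted p = 0.038). Without passage 0 replicate 3 neither probe passed, with limma adjusted p of 0.0674 and 0.136. Probe 2 was also lost without any of the 3 stem cell replicates (0.102, 0.0744 and 0.0700), without passage 0 replicate 2 (0.106), with no filter on dim probes (0.0614) and with only probes above background in both groups (0.0507). Expanded myoblasts spread from 4.28 in the dim replicate 1 to 0.46 and 1.85.

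In quadriceps Igfbp2 probe 1 lay at -0.59, -1.72 and -3.15, the last not above background, and on day 4 at 1.63, -1.10 and 1.22. The fall was 5.28-fold on probe 1 (log2 change -2.40, SE 0.88, limma adjusted p = 0.043) and 16.4-fold on probe 2 (log2 change -4.04, SE 1.13, limma adjusted p = 0.0099). On probe 2 quadriceps lay at -0.88, -5.56 and -4.98, with only the first above background, so the size of that fall rests on dim signal. Its log2 change ran from -5.50 without quadriceps replicate 1 to -2.05 with normexp. The groups overlapped on both probes. Slide 2 and slide 3 gave differences of -3.34 and -4.37 for probe 1 but slide 1 gave 0.51, and for probe 2 slide 1 gave 0.40. Slide 1 held the C57BL/6J quadriceps, of the same strain as the myotubes, and slides 2 and 3 held the 129Sv/C57BL/6J quadriceps. The part of strain in this fall was not tested. Probe 1 lost its call without day 4 replicates 1 (limma adjusted p = 0.176) or 3 (0.122) and without quadriceps replicates 2 (0.0886) or 3 (0.196). It also lost it with normexp (0.0501), the authors' values (0.0629), no filter on dim probes (0.0845) and slide as a block (0.0521). Probe 2 lost it without day 4 replicate 1 (0.0502) and without quadriceps replicates 2 (0.0663) or 3 (0.0533). The probes differed by a median of 0.18 and by over 1 in 2 of 21 samples, by up to 3.84 in quadriceps replicate 2.

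Igfbp7, a low-affinity family relative, was above background on 0 of the 23 arrays and gave no fold in any comparison.

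**Figure D5:**
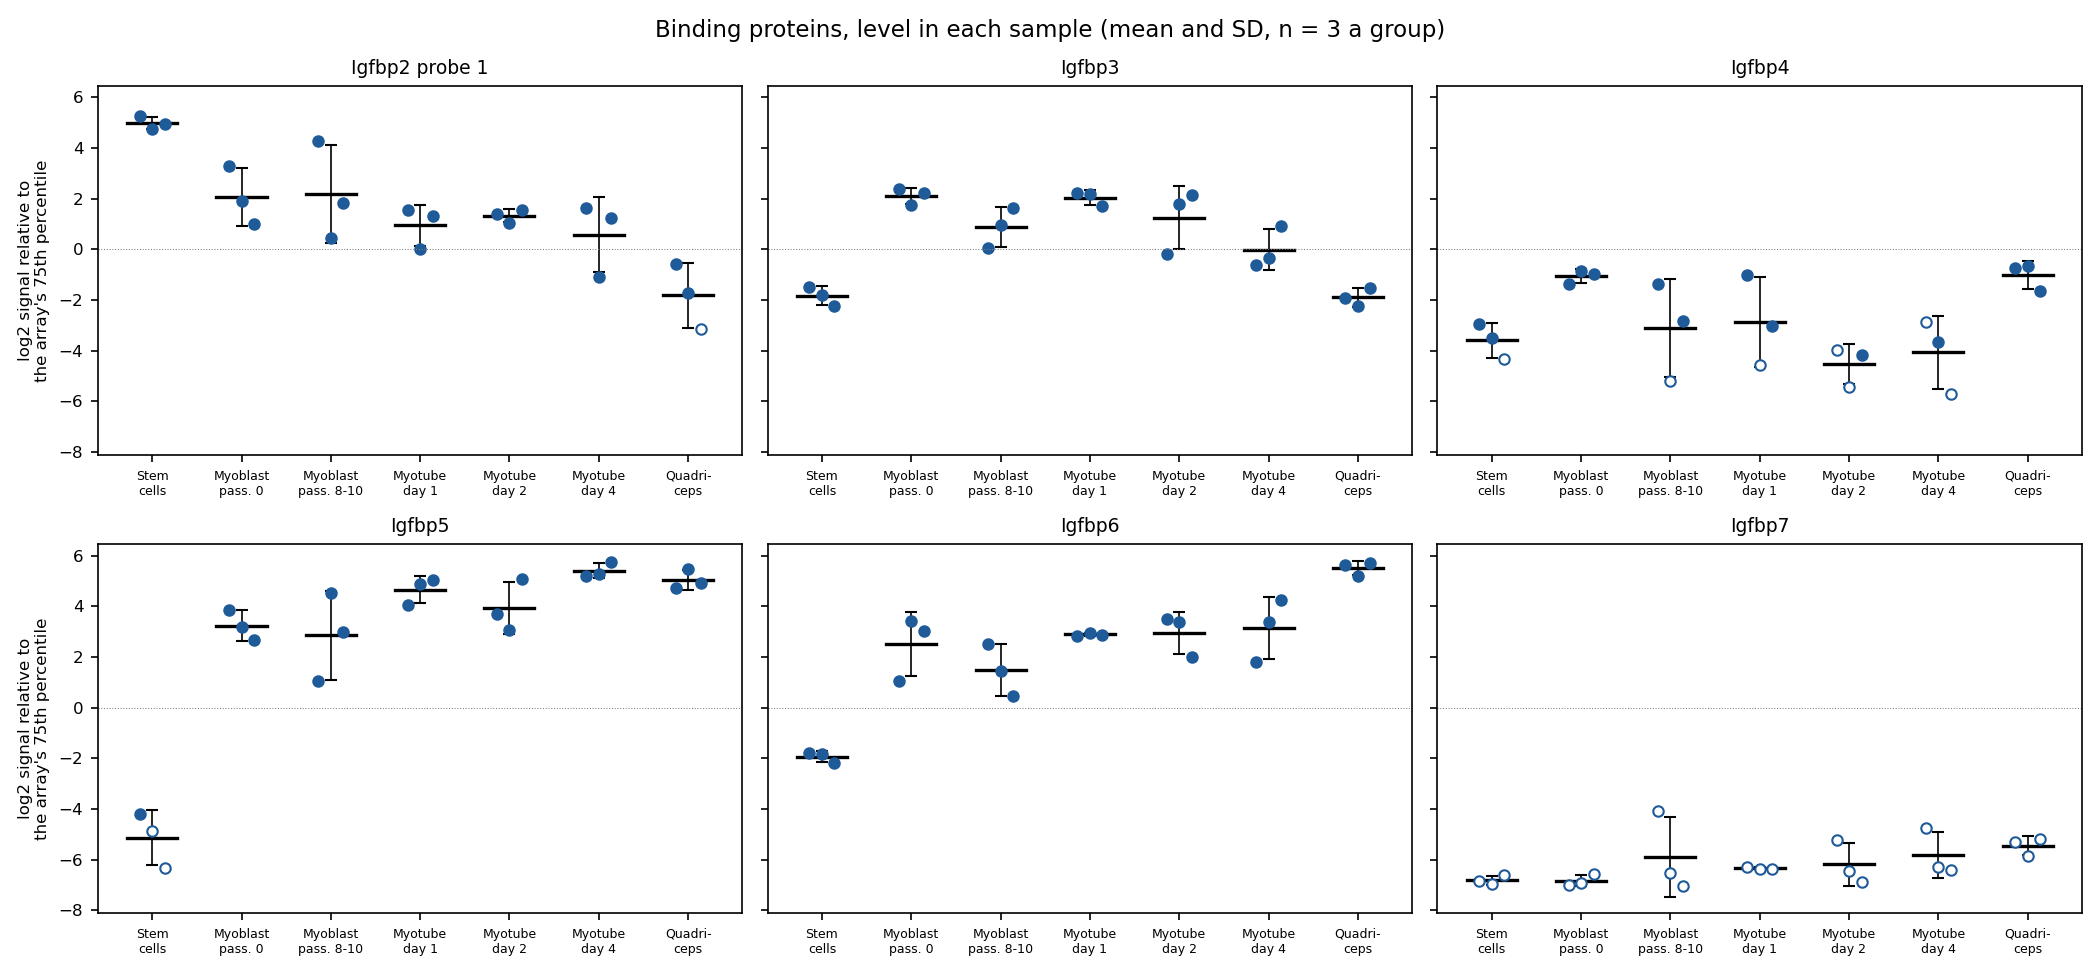
Level (y axis, log2 signal above or below the array's 75th percentile) of 6 binding proteins in each sample of the 7 groups (x axis); points are samples, open where not well above background, and bars are the mean and SD of 3 samples. Igfbp2 is highest in stem cells, Igfbp6 in quadriceps, and Igfbp5 is high in all myogenic groups.

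The mean levels of the marker lists of other cell types were higher in quadriceps than in day 4 myotubes. The mean level of 6 fibroblast and fibro-adipogenic markers ran from 3.63 to 4.33 in quadriceps and from -3.24 to -2.38 in day 4 myotubes. All 6 were above background in every quadriceps sample, and Pdgfra and Lum were above background in no day 4 sample. The 6 endothelial markers ran from 1.31 to 1.89 in quadriceps and from -2.12 to -1.39 on day 4, with Cdh5 below background in all day 4 samples. Kdr, on the same list, did not rise, with means of 3.34 in quadriceps and 3.32 on day 4. For smooth muscle and pericytes, the 5 markers ran from 0.69 to 2.08 against -4.19 to -3.29, with all 5 above background in every quadriceps sample. Adipocyte markers ran from 2.07 to 3.79 in quadriceps, 4 of 5 above background, and from -5.28 to -4.26 on day 4, with none above background in every sample. Leukocyte markers ran from -1.85 to -1.01 against -3.77 to -2.68. Of these 6 markers, 4 were above background in every quadriceps sample, Ptprc was in 1 sample and Cd68 was in none. Csf1r, on the same list, was above background in every sample of all 7 groups. The part of these cells in the changes of Igf1, Igf2, Igfbp2, Igfbp3, Igfbp4 and Igfbp6 in quadriceps was not tested. In bulk RNA, a change in the number of cells of a type and a change in RNA per cell cannot be told apart.

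Passage 0 myoblasts also carried such markers. Their 6 fibroblast markers were all above background in every sample, with mean levels of -0.95 to 1.69 against -2.41 to -2.08 in stem cells and -3.08 to -1.69 in expanded myoblasts. The 5 smooth muscle and pericyte markers ran from -1.29 to -0.87 in passage 0 myoblasts, above stem cells (-3.67 to -2.54) and expanded myoblasts (-4.32 to -2.17). Of these, Rgs5 had a mean of 1.51 against -6.78 in stem cells, Cspg4 2.24 against -2.51 and Pdgfrb -0.83 against -3.05. Cnn1 went the other way, at -1.67 against 2.18 in stem cells. Myh11 was above background in none of these samples. Their leukocyte markers, all 6 above background, ran from -2.47 to -0.16, against -3.09 to -2.76 in stem cells. Expanded myoblasts ran from -3.60 to -0.40 on this list and overlapped with passage 0. Cd68 went the other way, at -3.61 in passage 0 myoblasts against -3.13 in stem cells. Endothelial markers ran from -3.42 to -2.31, below stem cells, and adipocyte markers from -5.04 to -4.58. The part of these cells in the passage 0 levels of the members was not tested.

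The wider pathway was followed with 51 other genes in 5 lists (carriers and proteases, receptor-proximal signalling, PI3K-Akt-mTOR, FoxO factors with atrogenes, and the Igf2 locus with Igf2 mRNA-binding proteins). Between stem cells and passage 0 myoblasts 12 of 47 tested genes rose and 8 fell, against 17.5% higher and 20.5% lower over all probes tested. The median log2 change of the tested genes was 0.24. Irs1, the docking protein of the receptor, rose 77.2-fold (limma adjusted p = 1.2e-08), and the kinases Akt1 and Akt2 rose 7.10-fold and 4.28-fold. On the PI3K-Akt-mTOR list 6 genes rose and 3 fell, among them Pik3cb (3.50-fold lower) and Eif4ebp1 (2.15-fold lower). Of the carriers and proteases 0 rose and 3 fell, among them Igfbpl1 (at least 11.3-fold lower) and Igfals (at least 4.57-fold lower). H19, the neighbour of Igf2, rose 406-fold, and Igf2bp1, which binds Igf2 mRNA, fell 215-fold (limma adjusted p = 2.7e-07).

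Limma called 0 of 44 pathway genes between the myoblast passages, where 7 had an unadjusted p under 0.05, and 1 gene passed without expanded myoblast replicate 1. On day 1, 7 of 41 rose, against 5.31% over all probes, and 0 fell, against 2.88%, among them Rps6kb1, the S6 kinase, at 3.40-fold (limma adjusted p = 0.010). That list count was 3 without day 1 replicate 2, 1 without day 1 replicate 3 and 0 with only these 2 groups in the fit. Between days 1 and 2 and between days 2 and 4 limma called 0 of 43, with 6 and 2 genes at an unadjusted p under 0.05. The first of these counts was 1 with normexp, with the authors' values and with only the 2 groups in the fit. Over differentiation to day 4, 7 of 39 rose and 2 fell, against 14.2% higher and 10.1% lower over all probes. Trim63, a muscle ubiquitin ligase, rose 15.3-fold, and Fbxo32, another, fell 2.86-fold (limma adjusted p = 0.038). With only these 2 groups in the fit 1 gene was called in place of 9.

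Between day 4 and quadriceps 11 of 43 tested pathway genes rose and 10 fell, against 15.2% higher and 15.8% lower over all probes. Igfals, the acid-labile subunit that forms the serum complex with Igfbp3 or Igfbp5, was above background in all quadriceps and no day 4 sample and was at least 5.67-fold higher (limma adjusted p = 0.0048). Irs2 rose 6.60-fold and Fbxo32 rose 22.6-fold. Grb10, above background in no day 4 sample, was at least 12.2-fold higher (limma adjusted p = 0.038). On the receptor-proximal list 4 genes rose and 1 fell. On the PI3K-Akt-mTOR list 3 rose, among them Pik3r1 (4.46-fold) and Pik3cd (3.51-fold), and 5 fell. Akt1 fell 5.06-fold, Igf2bp2 fell 4.11-fold and H19 fell 9.72-fold. Igf2 and H19 both fell but to different extents. H19 kept a mean of 7.30 in quadriceps against 0.86 in stem cells, above background in all 3 quadriceps samples. Igf2 had a mean of -3.00 in quadriceps against -3.49 in stem cells, above background in 1 quadriceps sample.

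For the 5 members with the widest range of group means on 1 probe per gene, the one with the highest mean signal, the genes most alike were found by Pearson correlation of levels over the 21 samples among 15904 genes. The samples share groups, so these values describe the shared course. By this rule Igf1 was represented by probe 1, with group means 1.06 apart, and was left out. On Igf1 probe 5 the group means were 7.72 apart. Igf2 was most like Chrng (r = 0.985), the fetal subunit of the acetylcholine receptor, followed by Chd3 (r = 0.984) and Iffo1 (r = 0.981). Igfbp5 was most like Nfix (r = 0.975), a transcription factor of fetal muscle. Igfbp6 was most like Abcc9 (r = 0.936), a subunit of muscle potassium channels. Igfbp2 was most like Ccdc112 (r = 0.946) and Igfbp3 was most like Dipk2a (r = 0.943).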

How the data were processed

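The authors labelled RNA with Cy3 for 1-colour Agilent 8-array slides, and the spots were quantified with FeatureExtraction 10.7.3.1, per the file headers. The deposited scanner files give processed signals (intensity, linear scale, background-subtracted by the scanner software) and a call of well above background. The authors' value table holds log2 values with a median of 6.72 on every array. Its normalization method is not given in the sources used here, and it served as an alternative.

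Here the processed signal was put on the log2 scale and the 75th percentile of each array was subtracted. Control spots were left out, and spots of 1 probe were averaged without outlier spots. Where every spot of a probe on an array was an outlier, all were kept. Probes with 1 spot per array, such as those of Igf2, Igf1r and Igfbp2, therefore never lost a value. A mean per group was fitted to 21 samples with limma 3.58.1 in R 4.3.3 (lmFit and eBayes, 14 residual degrees of freedom), with 7 comparisons and p-values adjusted over all probes tested. A probe was tested if well above background in every sample of at least 1 group. On simulated data for day 4 against expanded myoblasts with 22803 probes, 65% of changes of 2 and 97% of changes of 4 (log2) were recovered, with 4 false calls. The simulation had independent noise, no dim array and only 100 changed probes of each size. Its rates therefore need not hold for the real comparisons, where many more probes changed. Probes were not merged across a gene: every probe of a member is named, and pathway genes are named as at most the 2 largest called changes per list and direction. Array number limits the precision. Expanded myoblasts and myotubes share culture numbers, but the labels do not say that a number marks an animal. Samples of equal replicate number, which in these groups also share a culture number, did not correlate above 0.1 in every pair of any comparison. The values were 0.57, 0.05 and 0.41 for day 4 against expanded myoblasts. The reported fit therefore has no block. A fit with culture number as a block for those 12 samples was added after the data were seen. The members and lists were chosen with earlier results of these data known. Alternatives were other background corrections, scalings, filters, blocks and sample sets.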

Additional observations from a re-analysis of the deposited data

How the results depend on the processing

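Counts of called member probes depended on the dim-probe filter, the samples in the fit and, for the myotube steps, the scaling. Requiring signal above background in both groups lowered the counts from 12 to 6 for passage 0 myoblasts against stem cells, from 4 to 2 on day 1, from 1 to 0 for day 4 against day 2 and from 10 to 4 for quadriceps. The lost calls were of probes no longer tested, except Igfbp2 probe 2 in the first of these, which was tested (limma adjusted p = 0.0507). Fitting only the 2 groups compared gave 0 on day 1, 0 for day 4 against day 2 and 0 for day 4 against expanded myoblasts. For day 4 against day 2 the count was also 0 with quantile normalization, median scaling, no filter and slide as a block, and 2 with the authors' values. For day 4 against expanded myoblasts it was 3 with normexp, 3 with median scaling, 2 with the authors' values and 4 with slide as a block, in place of 1. The cause was not tested.

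Leaving out 1 sample at a time gave 8 to 11 calls for passage 0 against stem cells, 0 to 5 on day 1, 0 to 1 for day 4 against day 2, 1 to 3 for day 4 against expanded myoblasts and 6 to 10 for quadriceps. Both comparisons without a call kept 0 under every alternative run. Testing the 28 calls again under each alternative gave 482 outcomes, of which 406 kept the call, 76 lost it and 0 reversed it, and 6 calls were kept under all. Median scaling moved the median of all probes to -0.53 in expanded against passage 0 myoblasts and to 0.44 on day 1, against 0.13 and -0.04 in the reported fit. With replicate number as a block the counts were 12, 0, 4, 0, 1, 2 and 10 in the order of the comparisons, so this pairing changed the count for day 4 against expanded myoblasts alone, where Igf2r passed too (limma adjusted p = 0.0405). Equal replicate numbers of passage 0 and expanded myoblasts carry different culture numbers, and the labels give none for stem cells. With culture number as a replicate block in those 4 groups, chosen after seeing the data, the counts were 4 on day 1, 0 for day 2 against day 1, 3 for day 4 against day 2 and 2 for day 4 against expanded myoblasts. Between 0 and 5 of 6 samples per comparison correlated best with their own replicate number. Where both groups share culture numbers, the count was 2 for day 1 against expanded myoblasts. It was 4 each for day 2 against day 1, day 4 against day 2 and day 4 against expanded myoblasts. Of 123 pathway counts under alternatives, 9 moved.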

Other observations

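The single NOD/ShiLtj skeletal muscle sample, which has no replicate, lay inside the range of the 3 quadriceps samples on 10 of the 15 probes. It lay above that range for Igf2r (2.66), Igfbp4 (-0.56) and Igfbp7 (-4.52, not above background). It lay below it for Igf1 probe 1 (0.66) and Igfbp3 (-3.03, against -2.24 to -1.52 in quadriceps). Igf2 was at -2.73 there and Igf1 probe 5 at 0.89, both inside the quadriceps range.

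The 2 arrays of the stem cell line E14tg2 correlated at r = 0.982. Their largest differences among the members were -0.75 on Igf1 probe 3 and -0.66 on Igfbp3 (first array minus second).

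A summary of Igf1 by probe 1 alone gives group means that differ by 1.06 at most, whereas a mean of all 5 probes gives a log2 change of 2.79 between stem cells and passage 0 myoblasts (limma adjusted p = 3.5e-05).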
